A study of Mus musculus with 10 samples.

Results

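The PRDM genes encode transcriptional regulators that carry a PR domain, a relative of the SET domain of lysine methyltransferases, and, in nearly all members, zinc fingers that bind DNA. In the count table, 9 rows, those with the symbols Prdm16, Mecom, Prdm1, Prdm2, Prdm4, Prdm9, Prdm10, Prdm11 and Prdm15, were taken by name from 26146 genes, and all 9 passed the filter on low counts that left 14165 genes to test. Of the other genes of the family in the table, Prdm6, Prdm8, Prdm12, Prdm13, Prdm14 and Zfp408 (also called PRDM17) are described for comparison.

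The libraries were poly(A) RNA from hematopoietic stem cells (HSCs) of mouse bone marrow, sorted as Lin-Sca1+Kit+ (LSK) CD48-CD150+ cells from 10 young adult mice. Of these, 5 carried a floxed Cited2 allele on both chromosomes and no Cre (Cited2CTL, labelled wildtype), and 5 carried the same floxed alleles with Vav-iCre (Cited2CKO, labelled Cited2 KO), a Cre driven by Vav regulatory sequences and active across blood cells from soon after HSCs arise. The controls therefore shared the floxed alleles but lacked the Cre, so that the effect of losing CITED2, a co-regulator that binds CBP/p300, and that of carrying Cre cannot be told apart. The library totals ran from 3058690 to 4548795 counts, and levels are given below as CPM (counts scaled to a common library size, here after TMM), with SD over n = 5 libraries per genotype.

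Cited2 itself was read at 163 ± 42.7 CPM in Cited2CTL HSCs and at 28.3 ± 51.3 CPM in Cited2CKO HSCs, and one library went against its label. The library labelled CKO 3 held 508 Cited2 counts, or 120 CPM, against 3.80 to 8.30 CPM in the other CKO libraries and 101 to 222 CPM in the controls. The log2 fold change of Cited2 was -2.51 with all libraries (adjusted p 0.328) and -4.92 without CKO 3 (adjusted p 1.8e-06, both edgeR). Gene totals do not show which part of the gene those reads came from. The defining HSC markers were read in every library, from Kit at 580 CPM to Fgd5, the lowest of the 9, at 56.4 CPM in controls. Among the markers of other cells, T cell markers passed the filter on low counts in 1 of 6 cases, plasma and B cell markers in 5 of 9, erythroid markers in 4 of 6, neutrophil and monocyte markers in 8 of 9, endothelial markers in 4 of 5 and megakaryocyte markers in 5 of 5. The neutrophil marker Ly6g was at 0 in all libraries, whereas the B cell marker Cd79b, at 56.4 CPM in controls, stood as high as Fgd5. The megakaryocyte markers, some of which HSCs are known to express, summed to between 512 and 632 CPM in controls and between 506 and 644 CPM in Cited2CKO libraries. The 9 neutrophil and monocyte markers varied most, with sums between 49.8 and 583 CPM in controls and between 60.4 and 342 CPM in Cited2CKO libraries. The part of these cells in the results below was not tested.

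PRDM16 and the products of Mecom are the pair of PRDM proteins best known in HSCs. PRDM16 is needed to maintain the HSC pool and, in another tissue, directs the brown fat programme. Mecom yields a long product with the PR domain (MDS1-EVI1) and a short one without it (EVI1), supports HSC self-renewal, and is activated in some myeloid leukaemias. Both long proteins have been described as monomethylating lysine 9 of histone H3. Gene totals do not separate the long and short forms of either gene.

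The pair also shared sequence at their starts. RefSeq promoter windows (GRCm38.p6; 250 bases before to 50 after an annotated start) were found for 8 of the 9 genes. Between windows of different genes, those 8 and the Prdm16 neighbour Prdm16os described below, the longest shared word was 24 bases long and joined Prdm16 and Mecom, while the next longest was 12 bases. It lay 10 to 33 bases into Prdm16, counted from the annotated start at 154636873 (minus strand, chromosome 4, 154636841 to 154636864). In Mecom it lay 27 to 50 bases into the long transcript (minus strand, chromosome 3, 30509710 to 30509733). In GENCODE M21 both places are exonic and annotated as untranslated. Of 32851 mouse promoter windows only these 2 held it on either strand. It is printed because it is a feature that Prdm16 and Mecom share and that their selection by name did not use; all of its letters are the shared word.
shared word of Prdm16 and Mecom: GCGCATGTGCGAAGGTGTCCAAAC

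The pair differed in their levels between genotypes. Prdm16 was lower in all 5 Cited2CKO libraries than in any control, whereas Mecom had nearly the same mean in both genotypes. The other 7 genes had overlapping ranges. Prdm16 read 72.9, 92.2, 77.6, 81.9 and 85.3 CPM in CTL 1 to 5, and 59.9, 46.0, 54.4, 63.5 and 57.8 CPM in CKO 1 to 5. The highest Cited2CKO value thus lay under the lowest control value, and the library labelled CKO 3 sat inside the range of the other Cited2CKO libraries. The means were 82.0 ± 7.37 and 56.3 ± 6.65 CPM, so that Cited2CKO HSCs held 68.7% of the control level.

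The fitted log2 fold change of Prdm16 was -0.54 (SE 0.11), with a 95% interval from -0.78 to -0.30, that is, a level between 18.9% and 42.0% below control. By edgeR's quasi-likelihood test the unadjusted p was 0.000266, the 53rd smallest of all genes, and the Benjamini-Hochberg adjusted p was 0.0709, which missed the threshold of 0.05. An exact two-sided permutation test of CPM gave p = 0.00794, the smallest that 5 against 5 libraries allow. Ranges without overlap always give this value. The call depended on the tool: the DESeq2 Wald test, the study's own choice, gave the same log2 fold change of -0.54 with an adjusted p of 0.00227 and so called the gene, while a per-library offset for GC content and length gave -0.50 with an adjusted p of 0.511 and ranges that overlapped. Without the library labelled CKO 3 the value was -0.53 (adjusted p 0.104, edgeR). Prdm16 is a gene that the study itself had named from these samples, so its direction here is no independent evidence.

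Of the 9 genes, edgeR's test with Benjamini-Hochberg adjustment called 0 at an adjusted p under 0.05 and a change above 20%, where 0.226% of all tested genes were called. At an unadjusted p under 0.05 it picked 1 of 9, Prdm16, against 12.9% of tested genes. DESeq2 called 1 of 9, again Prdm16, against 2.29% of the genes it tested. Non-overlapping genotypes were found for 1 of 9, against 3.33% of tested genes in either direction and 1.98% lower in Cited2CKO. The median log2 fold change of the 9 genes was -0.00063, and that of all tested genes was 0.01; 5 of the 9 had a negative estimate, as did 49.0% of all tested genes. The counts among the 9 therefore rest on Prdm16 alone.

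**Figure D1:**
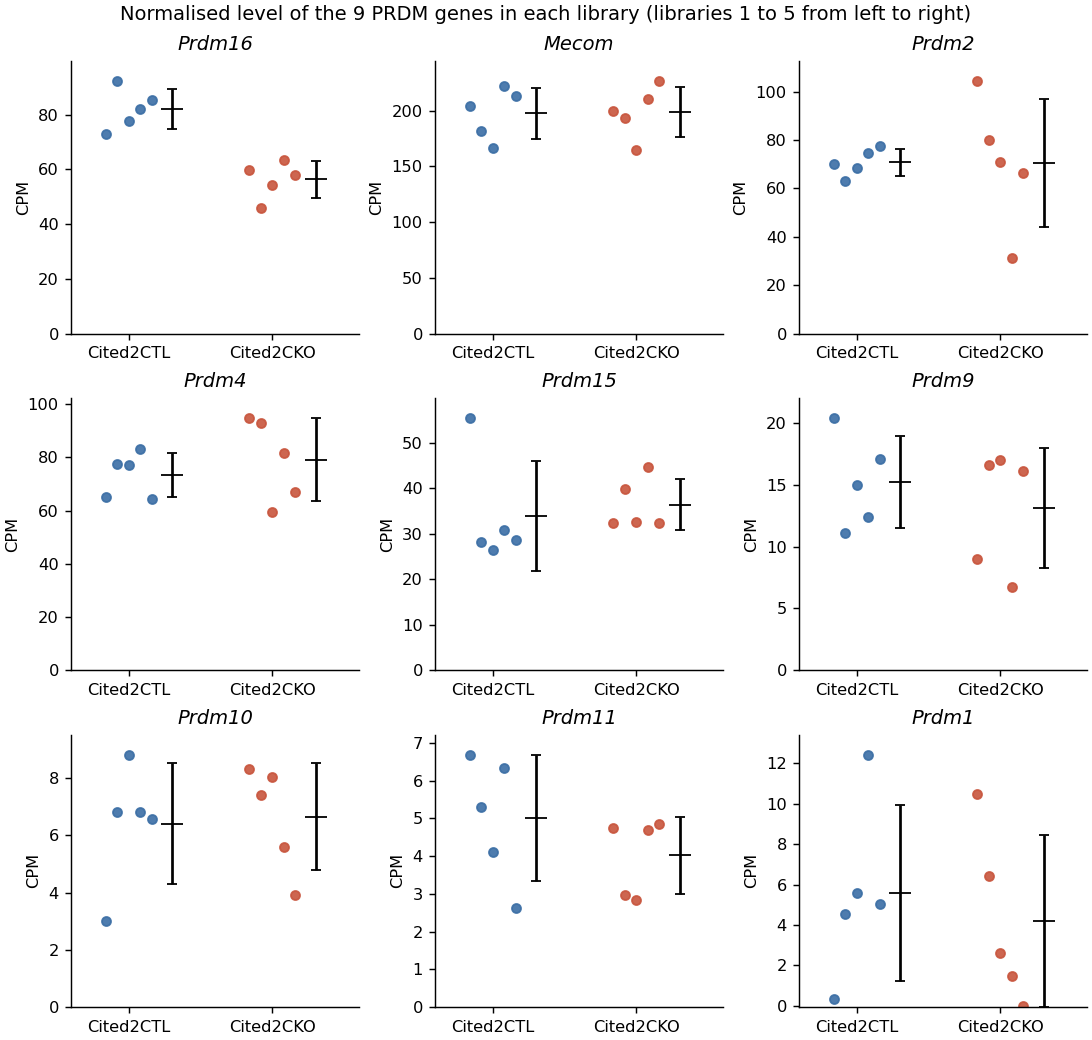
Normalised level in CPM (vertical axes, each from 0 or, for Prdm1, from just under it) of the 9 PRDM genes in the 5 Cited2CTL (blue) and 5 Cited2CKO (red) libraries; points are libraries and black bars the mean ± SD. Prdm16 is the one gene whose genotypes do not overlap, at 72.9 to 92.2 against 46.0 to 63.5 CPM.

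Mecom read 204, 182, 166, 223 and 214 CPM in CTL 1 to 5 and 199, 194, 165, 210 and 227 CPM in CKO 1 to 5. The ranges covered each other almost entirely. The means were 198 ± 23.1 and 199 ± 22.8 CPM, the log2 fold change was 0.01 (SE 0.10), and the 95% interval ran from -0.20 to 0.22, which leaves room for changes between 13.0% down and 16.2% up. With 566 to 983 counts per library, Mecom was the most deeply read of the 9 genes, and its interval was the narrowest.

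A ratio of the 2 genes within a library needs no scaling between libraries. There were 2.43 ± 0.359 Mecom counts per Prdm16 count in Cited2CTL HSCs (1.97 to 2.80) and 3.56 ± 0.486 in Cited2CKO HSCs (3.03 to 4.21), with no overlap. On the log2 scale, Prdm16 relative to Mecom was lower by 0.55 in Cited2CKO, with an exact permutation p of 0.00794 (n = 5 and 5). The adjusted p was 0.0317 over the 8 such ratios that were computed, a comparison added after the data were seen. Ranges without overlap always give this unadjusted p. All 8 ratios share Prdm16, and Mecom had nearly equal means, so the ratio to Mecom largely restates the Prdm16 difference. It is no separate evidence for that difference. Relative to Prdm4 the difference was -0.64, with the same p and adjusted p and no overlap. Relative to Prdm15 it was -0.69 (exact permutation p = 0.0397, adjusted 0.106), and the ratios to the other 5 genes had exact permutation p-values between 0.0873 and 0.738. Leaving out each library in turn, the Prdm16 to Mecom difference stayed between -0.61 and -0.48.

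Mecom is also one of the 9 HSC markers, and the others did not all behave alike. The markers summed to between 1976 and 2235 CPM in control libraries and between 1757 and 1988 CPM in Cited2CKO libraries. By edgeR with Benjamini-Hochberg adjustment 0 of 9 were called (0.226% of all tested genes), and by DESeq2 1 (2.29% of all tested genes). At an unadjusted p under 0.05, 2 were higher and 2 lower, beside 12.9% of all tested genes in either direction. In sorted bulk cells, fewer cells of a kind that expresses Prdm16 and less Prdm16 RNA per cell cannot be told apart, and the part of the marker levels in the Prdm16 difference was not tested.

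Within a genotype, libraries with more Prdm16 did not detectably have more Mecom. The deviations of log2 CPM from the genotype mean had a Pearson r of 0.20 (permutation p = 0.576) and a Spearman rho of 0.26 (permutation p = 0.470) over 10 libraries, the single relation tested of this kind. Without CTL 1 and CKO 2, the libraries farthest from the median in Prdm16, r was 0.38. By the same deviations, and among 11474 well-read genes, those most like Prdm16 were Galt (r = 0.94), Eno3 (0.93) and Gm20257 (0.93), and those most like Mecom were Rsbn1 (0.97), Ing1 (0.95) and Snap47 (0.95). These are the highest of 11474 values over 10 libraries and are given as a description. The 6 genes had adjusted p-values from 0.274 to 0.937 (edgeR) between the genotypes.

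The start of Prdm16 lies close to that of a second gene. Prdm16 lies on the minus strand of chromosome 4 (154316125 to 154636873 in GENCODE M21, GRCm38). The long non-coding gene Prdm16os runs the other way on the plus strand (154637580 to 154644718 in RefSeq), its first base 707 bases from the Prdm16 start and 220 bases from the outermost end that RefSeq gives Prdm16. Prdm16os did not pass the filter on low counts and was singled out after its values were seen. Its counts were 7, 31, 26, 29 and 17 in CTL 1 to 5 and 5, 3, 6, 3 and 3 in CKO 1 to 5. Every control library therefore stood above every Cited2CKO library, also on the CPM scale, at 5.72 ± 2.52 against 0.984 ± 0.310 CPM. An exact permutation test gave p = 0.00794, again the smallest possible. Ranges without overlap always give this value, so it adds nothing to them. In the edgeR fit without a filter on low counts the log2 fold change was -2.52, and the adjusted p of 0.142 (unadjusted 0.00106) missed the threshold. The exons of the pair do not overlap by these annotations, although reads of an unannotated extension of one gene into the other cannot be told apart here.

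The stretch that separates them (GRCm38.p6, chr4:154637361-154637579, plus strand, in the direction of Prdm16os) is shown because both neighbours were lower in Cited2CKO libraries. It is 219 bases long and 78.5% G or C. The capitals mark GC boxes (GGGCGG or its reverse complement), of which it holds 6; 32.7% of all promoter windows hold at least 1 in the 250 bases before the start.
gap between Prdm16 and Prdm16os: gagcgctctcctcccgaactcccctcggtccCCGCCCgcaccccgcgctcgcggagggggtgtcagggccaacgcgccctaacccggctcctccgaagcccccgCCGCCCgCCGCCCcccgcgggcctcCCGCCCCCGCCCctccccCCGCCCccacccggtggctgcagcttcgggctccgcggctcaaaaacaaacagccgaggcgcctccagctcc

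Nearer to Prdm16, 250 bases before its annotated start were searched on both strands for 8 short motifs: AGGCCT (the core letters of the ZFX motif), CAGCTG and CAGGTG (E proteins), TTCNNNGAA (STAT), ACGTG (HIF), GATAA (bound by GATA factors), CCAAT (the box of that name) and GGGCGG (GC box). Prdm16 held 3 of them: AGGCCT at -115, CCAAT at -98 and a GC box at -220, each counted from the annotated start at 154636873. RefSeq extends Prdm16 beyond this start, to 154637360. The searched stretch (chr4:154636874-154637123) thus lies before that start but inside the RefSeq span of the gene. AGGCCT occurred in 8.70% of the 32851 promoter windows and CCAAT in 33.9%. The 30 bases that hold the first of these and the CCAAT box (chr4:154636964-154636993, minus strand) are shown with both in capitals.
upstream of the Prdm16 start: cgagaAGGCCTcggagagccccCCAATccc

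Neither Mecom start held AGGCCT; the start of the long form held GATAA at -30 and 2 GC boxes. Of the other genes, Prdm10 held AGGCCT before 1 of its 2 starts. Prdm10 had a log2 fold change of 0.05 where Prdm16 had -0.54. At 9 to 35 counts per library, however, the interval of the Prdm10 value ran from -0.81 to 0.92 and included the Prdm16 value. The part of AGGCCT in either value was not tested. A match is a description of the letters, and nothing was measured of binding.

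**Figure D2:**
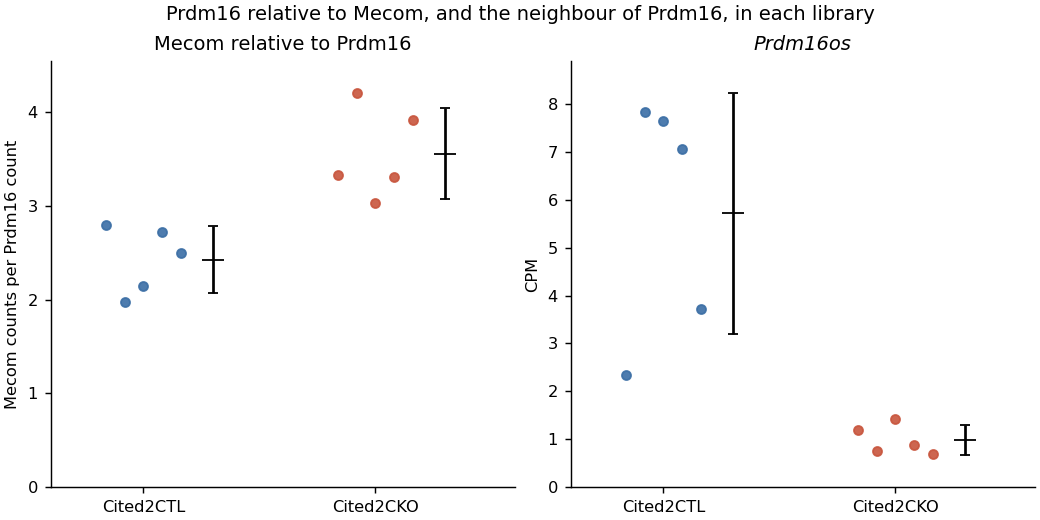
Mecom counts per Prdm16 count (left) and Prdm16os CPM (right) in each Cited2CTL (blue) and Cited2CKO (red) library, with the mean ± SD in black. The ratio lies at 1.97 to 2.80 in controls and 3.03 to 4.21 in Cited2CKO libraries, and Prdm16os has 7 to 31 counts in controls and 3 to 6 in Cited2CKO libraries.

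Genes that overlap Prdm16 or Mecom were read less often than either. B230104I21Rik, which overlaps Prdm16 exons on the opposite strand, had 1 to 8 counts per library where Prdm16 had 186 to 390. The lncRNA gene 5930403L14Rik lies inside the RefSeq span of Prdm16, near its start, and had 29 to 131 counts. Its log2 fold change was 0.12 (adjusted p 0.899, edgeR), with overlapping ranges. Gm10258, inside Mecom, had at most 17 counts. Whether counting used strand is not given in the sources used here, so reads where exons overlap cannot be assigned with certainty.

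Prdm1, Prdm2 and Prdm4 have roles in differentiation and in growth control. Prdm1 encodes BLIMP1, the repressor that drives plasma cell differentiation and the specification of primordial germ cells. It was the least abundant of the 9 per length and the most uneven: 0.334, 4.55, 5.59, 12.4 and 5.03 CPM in CTL 1 to 5, and 10.5, 6.43, 2.60, 1.47 and 0 CPM in CKO 1 to 5. Both genotypes held libraries near 0 and libraries above 10 CPM. The means were 5.59 ± 4.35 and 4.19 ± 4.24 CPM. The CV was 77.9% in controls and 101% in Cited2CKO, where counting alone would give 21.1% and 24.1%. The log2 fold change was -0.42 (SE 0.88, adjusted p 0.884, edgeR; -1.61 with 1 surrogate variable and -1.13 by limma-voom) with a 95% interval from -2.31 to 1.48, that is, a level between 0.201 and 2.79 times that of controls. Markers of plasma and B cells, where Prdm1 is known to act, summed to between 69.4 and 109 CPM in controls and between 85.0 and 97.5 CPM in Cited2CKO libraries. Of these, Jchain had 0 to 34 counts, and their part in the spread of Prdm1 was not tested.

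Prdm2 encodes RIZ, a protein that binds the retinoblastoma protein and is regarded as a tumour suppressor. It had 70.2, 63.1, 68.5, 74.6 and 77.7 CPM in CTL 1 to 5 and 104, 80.2, 71.2, 31.2 and 66.4 CPM in CKO 1 to 5. The controls were close together, whereas the Cited2CKO libraries lay both above and below them, CKO 4 being the lowest with 106 counts. The means of 70.8 ± 5.61 and 70.6 ± 26.5 CPM were nearly equal, and the log2 fold change was -0.00063 with a 95% interval from -0.48 to 0.48. The CV was 7.92% in controls and 37.5% in Cited2CKO, and without CKO 4 the log2 fold change was 0.18 (adjusted p 0.591, edgeR). A difference in spread was not tested.

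Prdm4 encodes a regulator that works with the arginine methyltransferase PRMT5. It had 65.2, 77.5, 77.0, 83.4 and 64.3 CPM in CTL 1 to 5 and 94.8, 93.0, 59.6, 81.7 and 67.1 CPM in CKO 1 to 5. Cited2CKO libraries were both the highest 2 and the lowest of the 10. The means were 73.5 ± 8.35 and 79.2 ± 15.6 CPM, and the log2 fold change of 0.11 (SE 0.14, adjusted p 0.793, edgeR) had a 95% interval from -0.19 to 0.41.

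Prdm15 and Prdm10 are known from early development: PRDM15 sustains naive pluripotency through Rspo1 and Spry1, and PRDM10 is needed in the early embryo. Prdm15 had 55.5, 28.3, 26.5, 31.0 and 28.7 CPM in CTL 1 to 5 and 32.3, 39.8, 32.6, 44.7 and 32.5 CPM in CKO 1 to 5. CTL 1 stood alone, above every other library of either genotype, and the other 4 controls all lay below every Cited2CKO library. The means were 34.0 ± 12.1 and 36.4 ± 5.63 CPM, with a log2 fold change of 0.10 (SE 0.21, adjusted p 0.876, edgeR) and a 95% interval from -0.34 to 0.55. Without CTL 1, the genotypes no longer overlapped and the log2 fold change was 0.34, with an adjusted p of 0.445 (edgeR). CTL 1 was the shallowest library, at 3058690 counts. It was also the control with the lowest values of Prdm16, Prdm1 and Prdm10, and with the highest of Prdm9, Prdm11 and Zfp408. The part of depth in these values was not tested.

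Prdm10 was read from 9 to 35 counts per library, at 3.01 to 8.82 CPM in controls and 3.92 to 8.32 CPM in Cited2CKO libraries. Its log2 fold change was 0.05 (SE 0.40), and the 95% interval from -0.81 to 0.92 is wide enough to hold the Prdm16 value. Prdm11, described as a candidate tumour suppressor in lymphoma, had 12 to 26 counts per library, at 2.63 to 6.69 CPM in controls and 2.84 to 4.84 CPM in Cited2CKO libraries. The log2 fold change was -0.31 (SE 0.45, adjusted p 0.818, edgeR) with an interval from -1.28 to 0.66. For both genes a change as large as that of Prdm16 was not detectable at this depth.

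Prdm9 encodes the germ-line methyltransferase that trimethylates lysine 4 of histone H3 and sets the places of meiotic recombination. It was read in every library, with 23 to 78 counts: 20.4, 11.1, 15.0, 12.4 and 17.1 CPM in CTL 1 to 5 and 9.03, 16.6, 17.0, 6.76 and 16.1 CPM in CKO 1 to 5. The ranges overlapped. The means were 15.2 ± 3.71 and 13.1 ± 4.83 CPM, and the log2 fold change was -0.21 (SE 0.30, adjusted p 0.820, edgeR) with a 95% interval from -0.85 to 0.44. Of 8 meiotic genes, all tested, edgeR and DESeq2 called 0, beside 0.226% and 2.29% of all tested genes. At an unadjusted p under 0.05 edgeR found 0, beside 12.9% of all tested genes. The smallest p-values belonged to Sycp3, of the synaptonemal complex (3.50 ± 1.35 against 6.93 ± 3.13 CPM, adjusted p 0.398), Zcwpw1, a reader of the PRDM9 mark (16.8 ± 4.16 against 24.5 ± 11.5 CPM, adjusted p 0.475), and the cohesin subunit Rec8 (45.7 ± 3.12 against 40.6 ± 5.85 CPM, adjusted p 0.629, all edgeR).

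**Figure D3:**
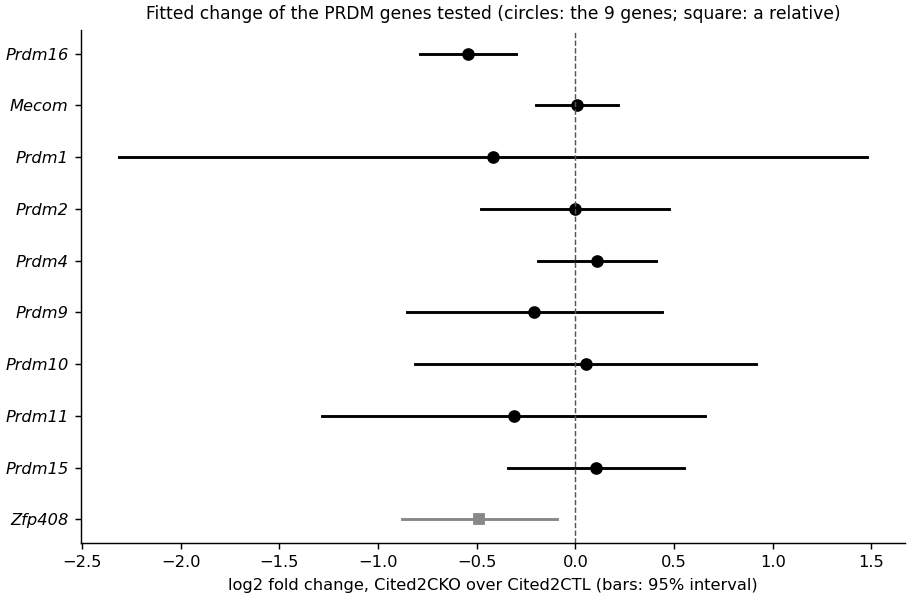
Fitted log2 fold change of Cited2CKO over Cited2CTL HSCs (horizontal axis) with its 95% interval for the 9 PRDM genes (black circles) and for Zfp408 (grey square); the dashed line marks no change. The intervals of Prdm16 (-0.78 to -0.30) and Zfp408 (-0.88 to -0.09) lie below 0, and those of the other genes include it.

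Between genes, levels were compared per kilobase of the deposited gene length. In controls the order was Mecom at 35.9 ± 4.20 CPM per kilobase, Prdm4 at 18.7 ± 2.13, Prdm16 at 9.52 ± 0.856, Prdm2 at 6.13 ± 0.486, Prdm15 at 5.35 ± 1.91, Prdm9 at 4.39 ± 1.07, Prdm11 at 2.68 ± 0.893, Prdm10 at 1.88 ± 0.618 and Prdm1 at 1.09 ± 0.846 CPM per kilobase. The median of all tested genes was 15.7 CPM per kilobase, so that Mecom and Prdm4 lay above it and the other 7 below. Per length, Mecom exceeded 72.5% of tested genes, Prdm16 38.5% and Prdm1 8.25%. Prdm16 had more counts than Prdm4 in 4 of 5 controls, but its gene length is 8608 bases against 3921, which places it lower per length.

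Of the 8 pairs of neighbours in this order, 5 differed within libraries at an adjusted p under 0.05 by an exact sign-flip permutation test over the 10 libraries. The order itself was set from the control means of these same libraries. Of the 5 pairs, the control ranges overlapped for Prdm15 and Prdm9, Prdm9 and Prdm11, and Prdm10 and Prdm1. Prdm15 exceeded Prdm9 in 3 of 5 controls and 5 of 5 Cited2CKO libraries. Mecom exceeded Prdm4 by 1.91-fold in controls and 1.81-fold in Cited2CKO, and Prdm4 exceeded Prdm16 by 1.96-fold in controls and 3.05-fold in Cited2CKO, each in 10 of 10 libraries (exact permutation p = 0.00195, adjusted 0.00781). Prdm16 exceeded Prdm2 by 1.55-fold in controls (5 of 5 libraries) and by 1.14-fold in Cited2CKO (3 of 5 libraries), which did not pass the adjustment (exact permutation p = 0.0449, adjusted 0.0599). Prdm2 and Prdm15 (adjusted 0.563, exact permutation) and Prdm11 and Prdm10 (adjusted 0.252, exact permutation) did not differ beyond their spread either. The 9 genes had the same order in Cited2CKO HSCs, where Prdm16 stood at 6.54 ± 0.772 and Prdm2 at 6.12 ± 2.29 CPM per kilobase.

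**Figure D4:**
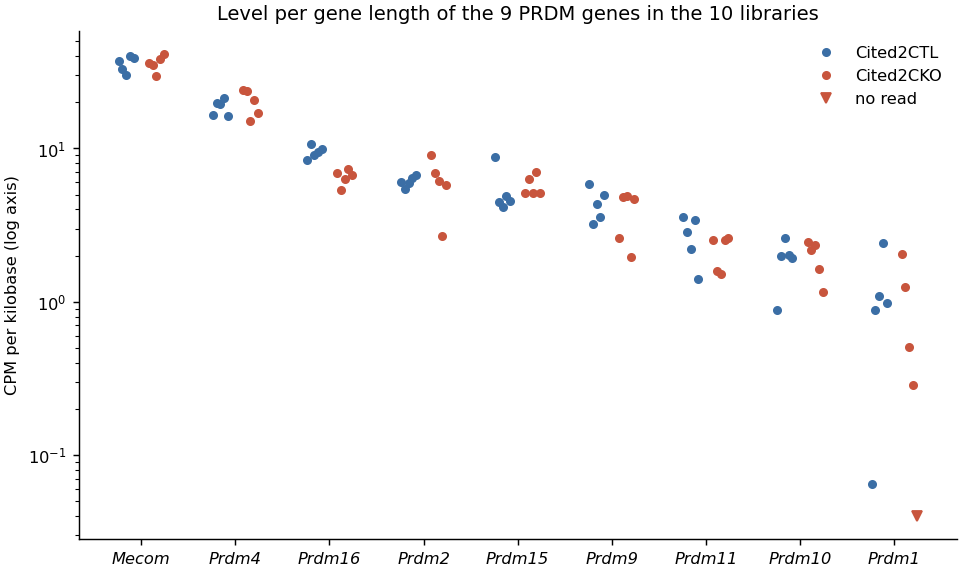
Level in CPM per kilobase (log axis) of the 9 PRDM genes, ordered by their mean in controls, in the 5 Cited2CTL (blue) and 5 Cited2CKO (red) libraries; the triangle stands for the library without a Prdm1 read. Mecom lies highest at 35.9 CPM per kilobase in controls and Prdm1 lowest at 1.09.

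Of the other 7 genes of the family in the table, only 2 passed the filter on low counts and were tested. Of these 2, edgeR and DESeq2 called 0, beside 0.226% and 2.29% of all tested genes. At an unadjusted p under 0.05 edgeR found 1, Zfp408, beside 12.9% of all tested genes. This zinc finger gene, known from the retina, had 39.8, 25.5, 37.9, 36.1 and 32.2 CPM in CTL 1 to 5 and 22.1, 22.8, 18.9, 25.9 and 32.5 CPM in CKO 1 to 5. The ranges overlapped through CTL 2 and CKO 5. The log2 fold change was -0.49 (SE 0.18, adjusted p 0.294, edgeR; unadjusted 0.0192), and with the offset for GC content and length it was -0.29 (adjusted p 0.837). Relative to Zfp408 within the library, Prdm16 differed by -0.05 on the log2 scale (exact permutation p = 0.833).

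The 5 relatives Prdm6, Prdm8, Prdm12, Prdm13 and Prdm14 act mainly in smooth muscle, neurons and germ cells. They did not pass the filter on low counts and were not tested. Prdm8 and Prdm12 had at most 2 counts in any library, Prdm6 at most 11 and Prdm14 at most 23. Prdm13 had 63 counts, 14.9 CPM, in the library labelled CKO 3 and at most 4.70 CPM in any other.

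PRDM proteins act with other regulators, and lists of these were compared between genotypes. Of 14 cofactors (CtBP, HDAC, LSD1 and related proteins), edgeR called 0 and DESeq2 0, beside 0.226% and 2.29% of all tested genes. By edgeR 2 were higher at an unadjusted p under 0.05, a share near the 12.9% of all tested genes. The 3 with the smallest p are given as a description. The corepressor Ncor1 had 255 ± 28.0 CPM in controls and 304 ± 17.2 CPM in Cited2CKO HSCs without overlap (adjusted p 0.210, edgeR). The lysine demethylase Kdm1a had 37.6 ± 9.23 and 52.4 ± 11.9 CPM (adjusted p 0.333), and the deacetylase Hdac2 266 ± 34.2 and 304 ± 21.7 CPM (adjusted p 0.388, both edgeR). The median log2 fold change of the 14 was 0.00028.

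The 6 H3K9 methyltransferases write further methyl groups on the residue that PRDM16 and the long Mecom product monomethylate. Of these 6, edgeR and DESeq2 called 0, beside 0.226% and 2.29% of all tested genes. At an unadjusted p under 0.05 edgeR found 0, beside 12.9% of all tested genes. The smallest p-values were those of Ehmt1 (log2 fold change -0.19, adjusted p 0.509), Suv39h2 (0.24, adjusted p 0.536) and Setdb1 (0.15, adjusted p 0.725, all edgeR).

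Of 14 transcription factors of HSCs, edgeR called 0 and DESeq2 called 1, Gfi1, as higher, beside 0.226% and 2.29% of all genes. At an unadjusted p under 0.05, edgeR found 2 higher and 1 lower, beside 12.9% of all genes. Gfi1, a repressor that restrains HSC cycling, had 14.6 ± 7.01 CPM in controls and 34.8 ± 11.9 CPM in Cited2CKO HSCs (log2 fold change 1.24, SE 0.32, adjusted p 0.123, edgeR), with overlapping ranges. Lyl1 had 185 ± 19.9 and 160 ± 6.11 CPM without overlap (adjusted p 0.300, edgeR).

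Of 16 genes known to be regulated by PRDM proteins in one tissue or another, 13 were tested. Among the 13, edgeR and DESeq2 called 0, beside 0.226% and 2.29% of all tested genes. At an unadjusted p under 0.05, edgeR found 1 higher and 2 lower, beside 12.9% of all tested genes. Myc, which BLIMP1 represses in plasma cells, had 278 ± 30.8 and 233 ± 28.5 CPM (log2 fold change -0.26, adjusted p 0.293), and Mfn2, a mitochondrial fusion gene that PRDM16 activates in HSCs, had 88.9 ± 12.3 and 74.4 ± 8.48 CPM (log2 fold change -0.25, adjusted p 0.386, both edgeR).

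Of 10 partners and targets of PRDM16 in brown fat, 7 were tested. Among the 7, edgeR and DESeq2 called 0, beside 0.226% and 2.29% of all tested genes. At an unadjusted p under 0.05 edgeR found 0, beside 12.9% of all tested genes. The mediator subunit Med1 differed by 0.18 on the log2 scale (adjusted p 0.451), Cebpb, the partner of PRDM16 in the choice of brown fat over muscle, by -0.46 (adjusted p 0.564), and Ppargc1b by 0.38 (adjusted p 0.624, all edgeR).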

How the data were processed

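RNA of sorted HSCs from 5 Cited2CTL and 5 Cited2CKO mice was sequenced by the authors, who aligned single-end reads to GRCm38 with HISAT2 and counted reads per gene with Rsubread. The deposited table holds raw counts per gene and a gene length. The annotation and strand setting of the counting are not given in the sources used here. Groups came from the genotype labels, 1 library a mouse.

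Counts of 26146 genes were filtered (filterByExpr, 14165 kept), scaled by TMM and tested with edgeR 4.0.16 (robust quasi-likelihood F test, no covariate, Benjamini-Hochberg over all tested genes); genes were called at an adjusted p under 0.05 and a change above 20%. The common biological CV was 25.3%. DESeq2 1.42.0, limma-voom (limma 3.58.1), sva 3.50.0, other scalings and filters, a GC and length offset, a replicate block and leave-one-out fits were alternatives. The fit was tested on simulated counts that gave every gene the common biological CV. Of 200 changes planted at 2 sizes in equal numbers, edgeR called 83, with 3 false calls. Of the 83, 77 were of the larger size and 6 of the smaller, which was near the Prdm16 change of -0.54. Most changes of that smaller size were thus missed in the simulation, and a gene not called is not shown to be unchanged. The CV of Prdm16 was 8.99% in controls and 11.8% in Cited2CKO, and that of Mecom 11.7% and 11.5%. These lie under the 25.3% simulated, so the share recovered is not an estimate for these 2 genes. Single values used exact permutation tests, and correlations used log2 CPM with a prior count of 2. The median of all genes moved by under 0.1 (log2) under each scaling.

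Named were the 9 genes, Cited2, the other PRDM genes, the 3 genes with the smallest p of each list of related genes, genes overlapping a PRDM gene, and the 3 genes most like Prdm16 and Mecom; Prdm16os was added after its values were seen. Some genes that this rule names are not reported here. The genes and lists were chosen with earlier results of these data known. Promoter sequences are RefSeq's (GRCm38.p6).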

Additional observations from a re-analysis of the deposited data

Results flagged for a closer look

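Of 34 groups of 5 libraries (17 PRDM-related genes in each genotype), 4 held a library whose gap to its neighbour exceeded Dixon's limit for 5 values; chance alone gives about 1 in 20 groups. Prdm15 in CTL 1 read 55.5 CPM (166 counts), and the other 4 controls lay between 26.5 and 31.0 CPM. Prdm13 in the library labelled CKO 3, the one that kept Cited2 reads, read 14.9 CPM (63 counts) against 0.230 to 2.94 CPM in the other Cited2CKO libraries. Prdm8 in CTL 3 (0.294 CPM) and Prdm12 in CKO 1 (0.238 CPM) each rest on 1 count where the other libraries of the genotype had none.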

How the results depend on the processing

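Prdm16 had a negative log2 fold change under all 19 alternatives, from -0.59 to -0.48, and was called by 1 of them, the DESeq2 Wald test (-0.54, adjusted p 0.00227); the number of the 9 genes called was then 1, and 0 under the other alternatives. Leaving out each library gave -0.59 to -0.48 for Prdm16 and 0 genes called. With the GC and length offset the genotypes overlapped for all 9 genes, which left 0 without overlap, and leaving out a library gave 1 or 2, the second being Prdm15 without CTL 1.

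Some estimates changed sign, none of them called under any alternative. Mecom was -0.0085 with no filter, -0.11 with the offset, -0.13 with the offset and the replicate block, and -0.052 to 0.070 with a library left out. Prdm2 was 0.0066 with DESeq2 size factors, 0.015 with at least 10 counts in every library, 0.0049 by DESeq2, and -0.19 to 0.18 with a library left out. Prdm10 was -0.069 with 1 surrogate variable, -0.016 with the offset, and -0.13 to 0.19 with a library left out. Prdm1, -0.42 in the report, was -1.61 with 1 surrogate variable, -1.13 by limma-voom, -0.90 with the replicate block, -1.02 with offset and block, and -1.09 to 0.10 with a library left out, the sign turning without CTL 4 only. The cause was not tested. The counts of genes with a negative estimate moved by over 1.5 times for the H3K9 methyltransferases with DESeq2 size factors (1) and for the meiotic genes with the offset (5).

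Whether the replicate numbers pair the libraries was not settled. The correlation of same-numbered libraries' deviations was between -0.095 and 0.208, over 0.1 for 2 of 5 numbers. It was not set against that of differently numbered libraries. With the replicate block Prdm16 was -0.55 (adjusted p 0.175), 0 of the 9 genes were called, and 24 genes in all against 32. DESeq2 called 325 genes and the offset 8. The order per length was the same in TPM, which rescales all genes of a library by 1 factor. The order within a library is then fixed, so this is hardly a check. The Prdm16 and Mecom correlation stayed between 0.12 and 0.38. For Prdm10 and Prdm11, at 35 counts or fewer a library, counting alone gives a CV of 19.2% to 24.8%; the spread of Prdm1 was well beyond counting error.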
